A study of Arabidopsis thaliana with 12 samples.

Results

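The plastid ribosomal RNAs *rrn16S*, *rrn23S*, *rrn4.5S* and *rrn5S* were followed with the spacers beside them through the RNA co-immunoprecipitation of *At*MKIP1-YFP. Their members were the plus-strand segments lying wholly inside 2 windows of the *rrn* operon. The first window ran from 112 nt before the 5′ end of *rrn16S* to 288 nt past its 3′ end, and the second from 141 nt before *rrn23S* to 31 nt past *rrn5S*. They held 26 of the 555 precipitate segments and 23 of the 574 input segments. All of these passed the filter on low counts. A further 4 segments in each table crossed a window border.

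Seedlings of Arabidopsis thaliana were harvested at 10 days, in 3 pools of about 10 g per line, and each pool gave a library of RNA bound to anti-YFP beads (precipitate) and one of the extract before it (input), 12 in all. The first line expressed *At*MKIP1-YFP, a protein that works with the splicing factor MatK in the plastid, in the *mkip1-2* mutant. The control line expressed *At*BE3-YFP, whose bait protein branches starch chains in the plastid, in the wild type, so that its seedlings also had their own *At*MKIP1. Both lines were of the Col-0 ecotype and both transgenes were driven by the *UBQ10* promoter, which is active in most tissues and not only where the native gene is. Input RNA was depleted of ribosomal RNA and fragmented, and neither step is described for the precipitate RNA. Levels in the input are therefore what the depletion left.

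The plastid ribosome is of the bacterial type, and its small subunit is built on the 16S rRNA and its large subunit on the 23S, 4.5S and 5S rRNAs. All of these are cut from a single long precursor, which also carries *trnI-GAU* and *trnA-UGC* between the 16S and the 23S. Both tRNA genes are interrupted by group II introns. After assembly the 23S rRNA of land plants is cut at so-called hidden breaks, and the pieces remain together in the ribosome.

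The operon lies in the inverted repeat of the plastid chromosome (TAIR10). On the plus strand *rrn16S* spans nt 101012 to 102502 (1491 nt), *rrn23S* nt 104691 to 107500 (2810 nt), *rrn4.5S* nt 107599 to 107701 (103 nt) and *rrn5S* nt 107949 to 108069 (121 nt). The reference copy of each of the 4 genes in the other repeat is identical in sequence, so reads from both copies were counted together. Sequences below were read from the RefSeq chromosome. The small rRNAs are shown because each has only 1 precipitate segment of its own, whose bases are in capitals; the rest of *rrn4.5S* shares a segment with the 3′ end of *rrn23S*.
rrn4.5S: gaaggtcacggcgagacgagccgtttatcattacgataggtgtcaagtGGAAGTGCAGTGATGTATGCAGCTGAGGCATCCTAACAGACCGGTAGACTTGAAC
rrn5S: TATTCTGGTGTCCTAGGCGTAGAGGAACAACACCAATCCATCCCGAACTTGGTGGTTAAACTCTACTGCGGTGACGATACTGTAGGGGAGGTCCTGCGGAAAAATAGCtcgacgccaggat

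The libraries differed in depth and in how often a read was counted. The precipitates had 119799 to 319005 reads mapped to the plastid genome and the inputs 2213500 to 2868106. The precipitate numbers are given as counted after removal of duplicates, and the header of the input numbers does not say whether they were, which bears on every input value per mapped read and on shares set side by side between fractions. A read is entered in every segment that it touches, and the segment counts per mapped read were 2.03 to 2.12 in the *At*MKIP1-YFP precipitates, 1.23 to 1.28 in those of *At*BE3-YFP and 1.08 to 1.10 in the inputs. Abundance is given below as counts per 100 mapped reads of the same library. To compare genes of unequal length, a level was computed as counts per 1000000 mapped reads and nt, with 38 nt added to the length of a segment for reads of 39 nt, the middle of the accepted range. The 2 tables have their own segments, so levels of the fractions are set side by side without a test. Segment borders were drawn by DiffSegR from the same contrast of the baits that is tested here, which the p-values do not take into account.

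Ribosomal RNA took a much smaller share of the precipitate reads than of the input reads, although it was the input that had been depleted, and the baits differed by less than the spread of the pools allowed to be called. In the precipitates the member segments held 20.9, 22.8 and 25.2 counts per 100 mapped reads in the 3 *At*MKIP1-YFP pools and 30.0, 27.2 and 21.5 in the 3 *At*BE3-YFP pools. The *At*BE3-YFP pools spread more widely, and the third of them lay within the *At*MKIP1-YFP range. The means were 23 ± 2.16 and 26.2 ± 4.33 (SD of 3 pools each), a difference of -3.26 with p = 0.30 in a two-sided exact permutation test, which cannot go below 0.10 for 3 pools against 3. In the inputs, after depletion, the members still held 79.7, 75.2 and 76.8 counts per 100 mapped reads with *At*MKIP1-YFP and 78.7, 79.7 and 76.0 with *At*BE3-YFP (exact permutation p = 0.70). The opposite strand was scarcely covered. The minus-strand segment over the operon had a level of 0.124 to 0.245 in the precipitates and 0.119 to 0.183 in the inputs, where *rrn16S* had 31.8 to 45.1 and 202 to 225.

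The order of the rRNAs by level was not the same in the 2 fractions. With *At*MKIP1-YFP the precipitate level of *rrn5S* was 60.8 ± 12.5 (SD, n = 3), that of *rrn4.5S* 46.6 ± 8.60, *rrn23S* 45.5 ± 6.09 and *rrn16S* 35 ± 2.95. The ranges of *rrn5S*, *rrn4.5S* and *rrn23S* overlapped in this order, and *rrn16S* lay below *rrn23S* in every one of these libraries. With *At*BE3-YFP the levels were 70.6 ± 22.7, 51.1 ± 13.2, 51.9 ± 9.06 and 39.7 ± 5.39 for the same 4 rRNAs, and the ranges of neighbours overlapped throughout. Within each *At*BE3-YFP library *rrn16S* again lay below *rrn23S* (45.1, 39.7 and 34.3 against 59.1, 54.8 and 41.7). In the inputs *rrn16S* was highest, with 204 ± 2.17 and 219 ± 5.36 for the 2 baits, followed by *rrn23S* with 135 ± 7.73 and 130 ± 9.38 and *rrn5S* with 43.5 ± 7.17 and 47.7 ± 8.05. These 3 did not overlap in either bait. *rrn4.5S* had no input value, because its only input segment also holds the 3′ end of *rrn23S* and the spacer between them.

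**Figure D1:**
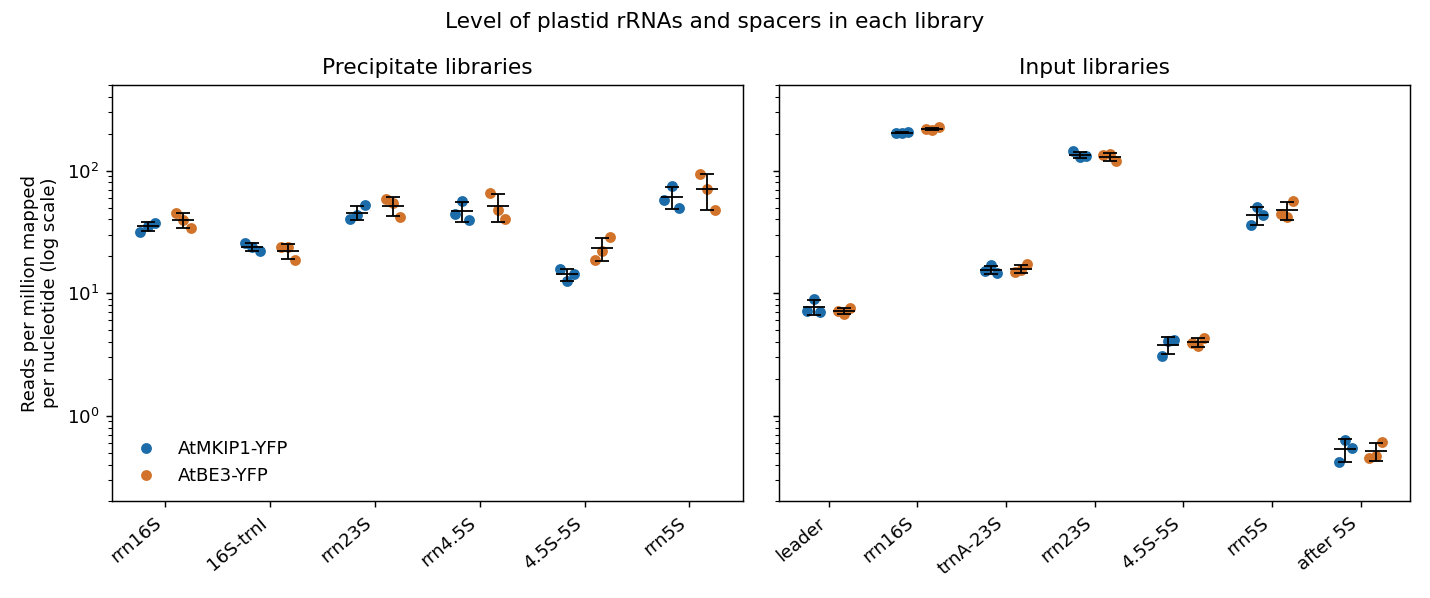
Level of each plastid rRNA and spacer (counts per 1000000 mapped reads and nt, log scale) in the precipitate libraries (left) and the input libraries (right); points are libraries, bars the mean ± SD of 3 pools per bait. The baits overlap at each rRNA of the precipitate, the 4.5S-5S spacer is lower with *At*MKIP1-YFP, and in the input *rrn16S* stands highest at 202 to 225.

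None of the 4 rRNAs passed the test between the baits in the precipitate when libraries were scaled to their mapped reads. *rrn16S*, the rRNA of the small subunit, had 5.31, 5.97 and 6.29 counts per 100 mapped reads with *At*MKIP1-YFP and 7.53, 6.56 and 5.63 with *At*BE3-YFP. *rrn23S*, which forms the catalytic core of the large subunit, had 14.9, 16 and 19.1 against 21.6, 20.1 and 15.4. Both showed the same pattern, in which the first and second *At*BE3-YFP pools were higher than any *At*MKIP1-YFP pool and the third was not. For *rrn4.5S*, which in bacteria corresponds to the 3′ end of the 23S rRNA, the values were 0.411, 0.523 and 0.367 against 0.611, 0.444 and 0.371. For *rrn5S* they were 0.864, 1.11 and 0.745 against 1.39, 1.05 and 0.712. The groups overlapped for each rRNA.

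The log2 fold changes of *At*MKIP1-YFP against *At*BE3-YFP were -0.17 (standard error 0.17) for *rrn16S*, -0.19 (0.20) for *rrn23S*, -0.13 (0.20) for *rrn4.5S* and -0.22 (0.22) for *rrn5S*, with adjusted p = 0.355 or above and none under 0.05 unadjusted in edgeR's quasi-likelihood test. These values were close to each other, and 2 standard errors on either side span -0.51 to 0.17 for *rrn16S* and -0.58 to 0.20 for *rrn23S*. Of the 52 precipitate features tested, 22 (42.3%) passed as higher and 21 (40.4%) as lower with a threshold of 0.01 on the adjusted p, and the median log2 fold change was -0.18. For *rrn5S* the result depended on which segments were summed: with every overlapping segment the value was -0.42 (adjusted p = 0.0021). That sum adds 1 segment, which runs on from 7045 to 28478 nt past the 5′ end of *rrn16S* and was itself at -0.58 (standard error 0.18), so that it is largely not a value of *rrn5S*.

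How the rRNAs stood depended on what they were set against. Of the 423 segments tested in the loci taken as targets of *At*MKIP1-YFP, which the study chose on these samples (among them *trnI-GAU*, *trnA-UGC* and *rpl2*), 396 were higher with it, at a median log2 fold change of 2.57. Of the 100 precipitate segments outside the target loci and the rRNA windows, 77 were lower and 4 higher, with a median log2 fold change of -0.89, whereas the median of the 26 members was -0.20. With libraries scaled on those 100 segments, a choice made after the values were seen, the rRNAs stood above the other plastid RNA, at 0.68 (standard error 0.19) for *rrn16S*, 0.66 (0.22) for *rrn23S*, 0.70 (0.22) for *rrn4.5S* and 0.61 (0.27) for *rrn5S*. None of these passed the threshold (adjusted p = 0.013, 0.027, 0.025 and 0.068). With the sum of segment counts as library size the same rRNAs turned to values from -0.95 to -0.86 and all 4 were called lower. That sum per mapped read was itself larger with *At*MKIP1-YFP, as given above, and the members made up 9.86, 11 and 12.4 percent of it against 24.4, 21.5 and 16.7 percent, without overlap.

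**Figure D2:**
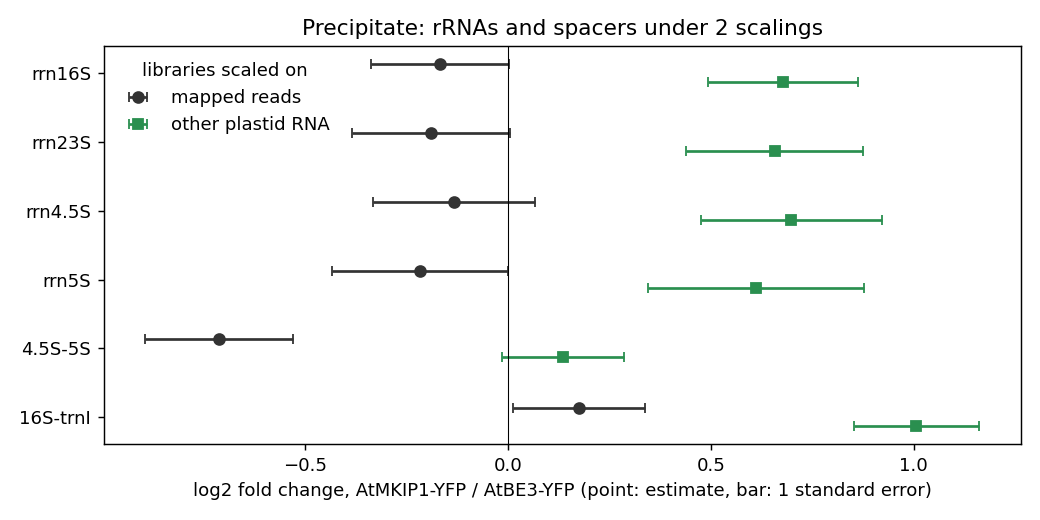
Log2 fold change of *At*MKIP1-YFP against *At*BE3-YFP in the precipitate for the 4 rRNAs and 2 spacers, with libraries scaled on mapped reads (circles) or on the 100 segments outside the target loci and the rRNA windows (squares); bars are 1 standard error. The rRNAs move together from between -0.22 and -0.13 to between 0.61 and 0.70, and the spacer between 4.5S and 5S stays below them under both scalings.

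Ratios between rRNAs of the same library need no library size, and these overlapped between the baits. The level of *rrn23S* relative to *rrn16S* was 1.30 ± 0.0823 (SD, n = 3) in precipitates of the first line and 1.30 ± 0.0832 in those of the control (two-sided exact permutation p = 1.0). The ratio of *rrn5S* to *rrn23S* was 1.36 ± 0.379 and 1.34 ± 0.219, and that of *rrn4.5S* to *rrn23S* 1.04 ± 0.269 and 0.980 ± 0.122 (SD, n = 3 each, exact permutation p = 1.0 and 0.90). In the input *rrn23S* to *rrn16S* was 0.659 ± 0.0369 and 0.594 ± 0.0567 (exact permutation p = 0.20). These ratios were chosen after the values were seen.

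The spacer between *rrn4.5S* and *rrn5S*, which is removed when the rRNAs mature, was lower in the *At*MKIP1-YFP precipitates. It had 0.445, 0.356 and 0.401 counts per 100 mapped reads with *At*MKIP1-YFP and 0.528, 0.629 and 0.813 with *At*BE3-YFP. All 3 pools of *At*MKIP1-YFP lay below all 3 of the control. On the log2 scale it fell by 0.71 (standard error 0.18), with adjusted p = 0.0019 by edgeR's quasi-likelihood test. Leaving out *At*MKIP1-YFP replicate 2 (-0.63, adjusted p = 0.013) or its replicate 3 (-0.71, adjusted p = 0.011) ended the call, as did DESeq2 with its own size factors (-0.66, adjusted p = 0.018) and no library scaling (-0.12, adjusted p = 0.81), and with libraries scaled on the other plastid RNA the value was 0.14. Relative to *rrn23S* in the same library its level was 0.317 ± 0.0634 and 0.471 ± 0.195 (SD, n = 3), and the groups overlapped (exact permutation p = 0.20).

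The spacer between *rrn16S* and *trnI-GAU* was the only one of the 6 rRNA features of the precipitate with a log2 fold change above 0. It had 1.48, 1.35 and 1.25 counts per 100 mapped reads with *At*MKIP1-YFP and 1.28, 1.34 and 0.984 with *At*BE3-YFP, and the groups overlapped. Part of these counts came from the segment of nt 102402 to 102740, which begins inside *rrn16S* and was itself at -0.01 (standard error 0.18). For the summed spacer the difference on the log2 scale was 0.18 (standard error 0.16), with adjusted p = 0.32. It reached 0.35 (adjusted p = 0.0057) when every overlapping segment was summed, and 1.01 (adjusted p = 0.00046) with libraries scaled on the other plastid RNA. The sum of overlapping segments takes in the segment from 1788 to 1798 nt past the 5′ end of *rrn16S*. That segment lies almost wholly in *trnI-GAU* exon 1, which begins at 1789, and was itself at 2.53 (standard error 0.20). With only segments wholly inside the spacer the value was 0.51 (edgeR's adjusted p = 0.046), which did not pass.

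Both tRNA genes of the operon were higher with *At*MKIP1-YFP, and the rRNA segments next to them were not called when libraries were scaled to mapped reads. The exons of *trnI-GAU* had log2 fold changes of 2.59 (standard error 0.17) and 2.64 (0.18) and its intron 1.95 (0.18), and the spacer to *trnA-UGC* 1.46 (0.17). The exons of *trnA-UGC* had 3.02 (0.28) and 3.04 (0.20) and its intron 3.50 (0.28). All of these were called higher. On the 16S side, the segment that stops 1 nt short of *trnI-GAU* (nt 102748 to 102799) had 0.50 (0.21), and the 7-nt segment before it (nt 102741 to 102747) had 0.51 (0.23). Neither passed (adjusted p = 0.038 and 0.048). The next segment, which ends 60 nt from *trnI-GAU*, was at -0.01 (0.18). On the 23S side, the segment that begins 1 nt after *trnA-UGC* and holds the 5′ end of *rrn23S* was at -0.09 (0.19). Farther away, *rrn16S* segments 399, 408 and 887 nt from *trnI-GAU* were at 0.11, -0.36 and -0.66, and *rrn23S* segments 435 and 442 nt from *trnA-UGC* at 0.39 and -0.19. With libraries scaled on the other plastid RNA, the segments next to the tRNA genes passed as higher. On the 16S side they were at 1.33, 1.33 and 0.83 (edgeR's adjusted p = 0.00022, 0.00042 and 0.00085), in the order given above. The segment on the 23S side was at 0.76 (adjusted p = 0.0053). There *trnI-GAU* exon 1 was at 3.44 and *trnA-UGC* exon 2 at 3.90.

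The sequences at both junctions are shown because the bait difference steps there. The exons of the tRNAs are in capitals, exon 1 of *trnI-GAU* after its spacer and exon 2 of *trnA-UGC* before its own. The first 7 lower-case bases of the first sequence are the 7-nt segment.
16S to trnI-GAU junction, nt 102741 to 102837: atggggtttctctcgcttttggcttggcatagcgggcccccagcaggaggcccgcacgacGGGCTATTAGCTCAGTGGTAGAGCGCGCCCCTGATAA
trnA-UGC to 23S junction, nt 104504 to 104598: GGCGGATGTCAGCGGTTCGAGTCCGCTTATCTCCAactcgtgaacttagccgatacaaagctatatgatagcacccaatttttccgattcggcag

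**Figure D3:**
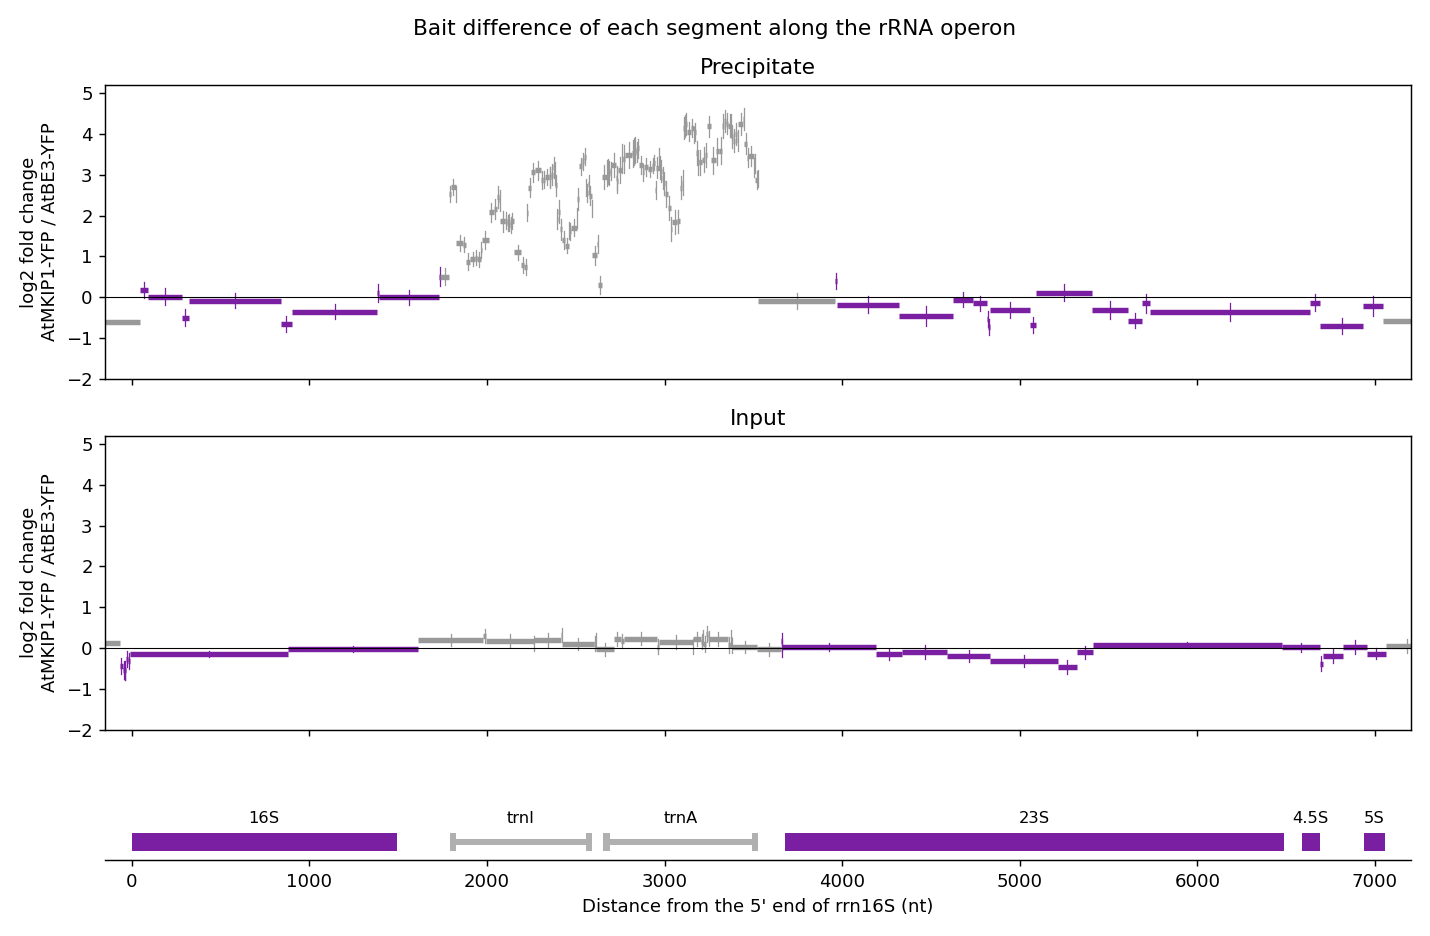
Log2 fold change of *At*MKIP1-YFP against *At*BE3-YFP for each plus-strand segment (horizontal bars, vertical lines 1 standard error) in the precipitate and the input, by distance from the 5′ end of *rrn16S* in nt, with the genes drawn to scale below; purple bars are the members. In the precipitate the tRNA genes reach 4.36 while the members lie between -0.74 and 0.51, and in the input the members lie between -0.56 and 0.17.

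Within the rRNAs, 4 of the 26 precipitate members were called lower and 0 higher, and 8 had an unadjusted p under 0.05. Over all 553 segments tested, 15.2% were called lower and 72.3% higher, and 510 had an unadjusted p under 0.05. The share of members called lower was near that of all segments, but that share is a mix. In the target loci 1 of 423 segments tested was lower, and 77 of the 100 segments outside them and the rRNA windows were. Besides the spacer between 4.5S and 5S, the members called lower were nt 101850 to 101913 of *rrn16S* (-0.66 on the log2 scale with a standard error of 0.19, adjusted p = 0.0049), nt 105832 to 105841 of *rrn23S* (-0.74, 0.20, 0.0026) and nt 106069 to 106100 of *rrn23S* (-0.69, 0.20, 0.0044). In each of these the counts per mapped read of the baits did not overlap. The number of these calls changed with single libraries. Leaving out the second *At*MKIP1-YFP pool gave 0 lower members, and leaving out the first pool of *At*MKIP1-YFP, or the first or second of *At*BE3-YFP, gave 1 each. Leaving out the third *At*BE3-YFP pool gave 9.

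With libraries scaled on *rrn23S* itself, a choice made after the values were seen that compares each segment with that rRNA, 0 members were called in either direction by edgeR (3 at an unadjusted p under 0.05), where 71.1% of all segments were called higher and 4.88% lower. With libraries scaled on the other plastid RNA, 10 of the 26 members were called higher and 0 lower, where 79.0% of all segments were higher and 0.362% lower. The 3 rRNA segments called lower under mapped reads had 0.18, 0.11 and 0.17 there.

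The 16S segment that was lower had a level of 22.9, 27.1 and 25.5 with *At*MKIP1-YFP and 48.4, 38.9 and 31.8 with *At*BE3-YFP. The highest member of *rrn16S* (nt 101057 to 101102) had a level of 112 to 133 against 87.6 to 130 and a log2 fold change of 0.18 (standard error 0.20). In *rrn23S* the highest was the 7-nt segment of nt 104974 to 104980, an unbroken run of A, with 117, 124 and 114 against 92.1, 109 and 69.4. Its groups did not overlap, but it did not pass the threshold (0.39, standard error 0.19, adjusted p = 0.063). The sequences of these short segments are shown, in capitals within their surroundings, because they carry the lowest and the highest values of the rRNAs.
16S, lower, nt 101835 to 101928: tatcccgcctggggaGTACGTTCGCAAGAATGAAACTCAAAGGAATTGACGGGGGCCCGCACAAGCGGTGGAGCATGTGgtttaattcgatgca
23S, lower, nt 105817 to 105856: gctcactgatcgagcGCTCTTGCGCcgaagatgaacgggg
23S, lower, nt 106054 to 106115: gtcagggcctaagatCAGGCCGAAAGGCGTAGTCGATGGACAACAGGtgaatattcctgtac
23S, highest, nt 104954 to 105000: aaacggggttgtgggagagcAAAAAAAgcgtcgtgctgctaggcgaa

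In the input no rRNA and no spacer was called. *rrn16S* had 34.4, 34.1 and 34.8 counts per 100 mapped reads with *At*MKIP1-YFP and 36.3, 36.1 and 37.8 with *At*BE3-YFP. The groups did not overlap, but the difference was small, at -0.09 on the log2 scale (standard error 0.06, adjusted p = 0.72). *rrn23S* had 42.2, 37.8 and 38.9 against 39.2, 40.4 and 35.1 (log2 fold change 0.05, standard error 0.05), and *rrn5S* 0.538, 0.750 and 0.642 against 0.656, 0.621 and 0.843 (-0.14, 0.15). Of the 74 input features tested by edgeR, 0% were called in either direction, and of the 7 rRNA, spacer and leader features 0 had an unadjusted p under 0.05.

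Of the 23 input members, 0 were called by edgeR and 7 had an unadjusted p under 0.05, and by DESeq2 with mapped reads 0 were called and 2 had an unadjusted p under 0.05. Over all 572 input segments 1.57% were called higher and 0.175% lower by edgeR. An unadjusted p under 0.05 was found for 91 of them by edgeR and for 62 by DESeq2 with mapped reads. Among the 7 members are neighbouring leader segments of 1 to 20 nt, which can share reads. The lowest member was nt 100968 to 100974 of the leader, with 36 to 55 counts against 51 to 82. Its difference was -0.56 (standard error 0.22, edgeR's adjusted p = 0.17). The leader segments on either side of it, nt 100963 to 100967 and nt 100975, were at -0.54 each (0.23, adjusted p = 0.23). The lowest member of *rrn23S*, nt 106227 to 106332, was at -0.46 (0.16, adjusted p = 0.13). With libraries scaled on the other plastid RNA this *rrn23S* segment was called lower (-0.56, adjusted p = 0.0046).

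The spacers and the leader of the operon mark RNA not yet fully processed. Those with an input value lay below *rrn16S*, *rrn23S* and *rrn5S* taken as whole genes, as left by the depletion. Parts of *rrn23S* were as low as some spacers, with 10.7 to 18.1 in its middle stretch, described below. The spacer between 23S and 4.5S had no input value of its own. The leader before *rrn16S* had a level of 7.75 ± 1.08 (SD, n = 3) with *At*MKIP1-YFP and 7.15 ± 0.365 with *At*BE3-YFP, and the spacer between *trnA-UGC* and *rrn23S* 15.5 ± 1.19 and 15.9 ± 1.17. The spacer between 4.5S and 5S had 3.77 ± 0.594 and 3.98 ± 0.309, and the stretch after *rrn5S* 0.531 ± 0.110 and 0.511 ± 0.0830. Their log2 fold changes were 0.08, -0.03, -0.09 and 0.06, and none was called. Relative to *rrn16S* in the same library, the leader stood at 0.0352, 0.0445 and 0.0341 with *At*MKIP1-YFP and at 0.0331, 0.0316 and 0.0334 with *At*BE3-YFP, which did not overlap (exact permutation p = 0.10, the smallest possible). These leader values rest mostly on a single segment, which crosses the window border and is not a member. Its level was 8.99 to 12.0 in the inputs and its log2 fold change 0.13 (standard error 0.16). The leader segments that are members went the other way. They had levels of 0.221 to 1.39 and log2 fold changes from -0.56 to -0.27, and none was called. The value of the spacer between *trnA-UGC* and *rrn23S* likewise rests mostly on a segment that is not a member, nt 104531 to 104668. That segment begins inside *trnA-UGC* exon 2, which ends at nt 104538, and had levels of 15.1 to 17.7. The members in this spacer, nt 104669 to 104671 and nt 104672, had levels of 0.510 to 0.774. In the precipitates the spacer between 4.5S and 5S stood at 0.272, 0.170 and 0.285 of the level of *rrn5S* with *At*MKIP1-YFP and at 0.201, 0.315 and 0.603 with *At*BE3-YFP. In the inputs it stood at 0.0756 to 0.0951 of it over all 6 libraries. Depletion and fragmentation of the input RNA move with this difference between fractions, and their part in it was not tested.

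The difference of the baits in the precipitate minus that in the input passed the threshold for none of the 3 rRNAs that could be tested. In edgeR's test of the interaction of bait and fraction, the difference was -0.07 (standard error 0.20, adjusted p = 0.73) for *rrn16S*, -0.24 (0.21, adjusted p = 0.26) for *rrn23S* and -0.08 (0.24, adjusted p = 0.74) for *rrn5S*. For the spacer between 4.5S and 5S it was -0.62 (0.23) and missed the threshold at an adjusted p of 0.011. The introns of *trnI-GAU* and *trnA-UGC* were at 1.82 and 3.39 in the same test. Of the 35 features in it, 25.7% were called higher and 54.3% lower. With libraries scaled on the other plastid RNA *rrn16S* and *rrn5S* were called higher, at 0.86 (adjusted p = 0.0057) and 0.84 (adjusted p = 0.0099).

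The 23S rRNA was covered unevenly in both fractions, and far more so in the input. The SD of the log2 level over its segments, weighted by length, was 1.30, 1.31 and 1.21 in the precipitates of *At*MKIP1-YFP and 1.14, 1.19 and 1.20 in those of *At*BE3-YFP. The groups did not overlap, with means of 1.27 ± 0.0588 and 1.18 ± 0.0309 (SD, n = 3) and p = 0.10 in a two-sided exact permutation test, the smallest that it allows. In the inputs the SD was 2.39 to 2.56 and 2.24 to 2.46 (two-sided exact permutation p = 0.40). Over segments of 20 nt or longer, the highest level was 17.4 to 27.9 times the lowest in the precipitates and 152 to 243 times in the inputs.

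The input borders divided *rrn23S* into a 5′, a middle and a 3′ stretch (nt 104691 to 105203, nt 105204 to 106423 and nt 106424 to 107500), whose lengths are near the sizes of the pieces made by the hidden breaks. The borders were chosen for this from all input borders after the values were seen, and a border is a place where counts or bait differences step, not a mapped cut. The 5′ stretch had levels of 78.6 to 99.1 over the 6 input libraries, the middle one 10.7 to 18.1 and the 3′ one 260 to 314. The 3′ stretch therefore stood at 15.4 to 26.4 times the middle one. In the precipitates the same stretches had 56.1 to 73.8, 34.9 to 47.1 and 37.7 to 67.0.

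The 40 nt around each border are shown because the input level steps there from the 5′ to the middle stretch and from the middle to the 3′ stretch. Capitals mark the 20 nt downstream of the border.
First border, nt 105184 to 105223: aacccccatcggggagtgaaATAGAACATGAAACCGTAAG
Second border, nt 106404 to 106443: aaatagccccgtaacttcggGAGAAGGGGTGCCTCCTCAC

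The level of the 3′ stretch relative to the middle one was lower with *At*MKIP1-YFP in each precipitate pool, but not in the input, and 3 pools against 3 cannot pass a threshold of 0.05. In the precipitates it was 1.04, 1.06 and 1.05 with *At*MKIP1-YFP and 1.46, 1.19 and 1.22 with *At*BE3-YFP. All pools of *At*MKIP1-YFP lay below those of the control (exact permutation p = 0.10, the smallest possible). The 5′ stretch relative to the middle one was 1.49 to 1.57 and 1.59 to 1.61, also without overlap. In the inputs the 3′ stretch stood at 23.3, 26.4 and 20.6 times the middle one with *At*MKIP1-YFP and at 15.4, 21.0 and 21.5 times with *At*BE3-YFP, where the groups overlapped and the mean was higher with *At*MKIP1-YFP (exact permutation p = 0.30). There the 5′ stretch stood at 6.80 to 7.91 times the middle one with *At*MKIP1-YFP and at 5.46 to 6.50 times with *At*BE3-YFP. In the inputs this ratio was thus higher with *At*MKIP1-YFP without overlap (exact permutation p = 0.10), in the direction opposite to the precipitates.

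**Figure D4:**
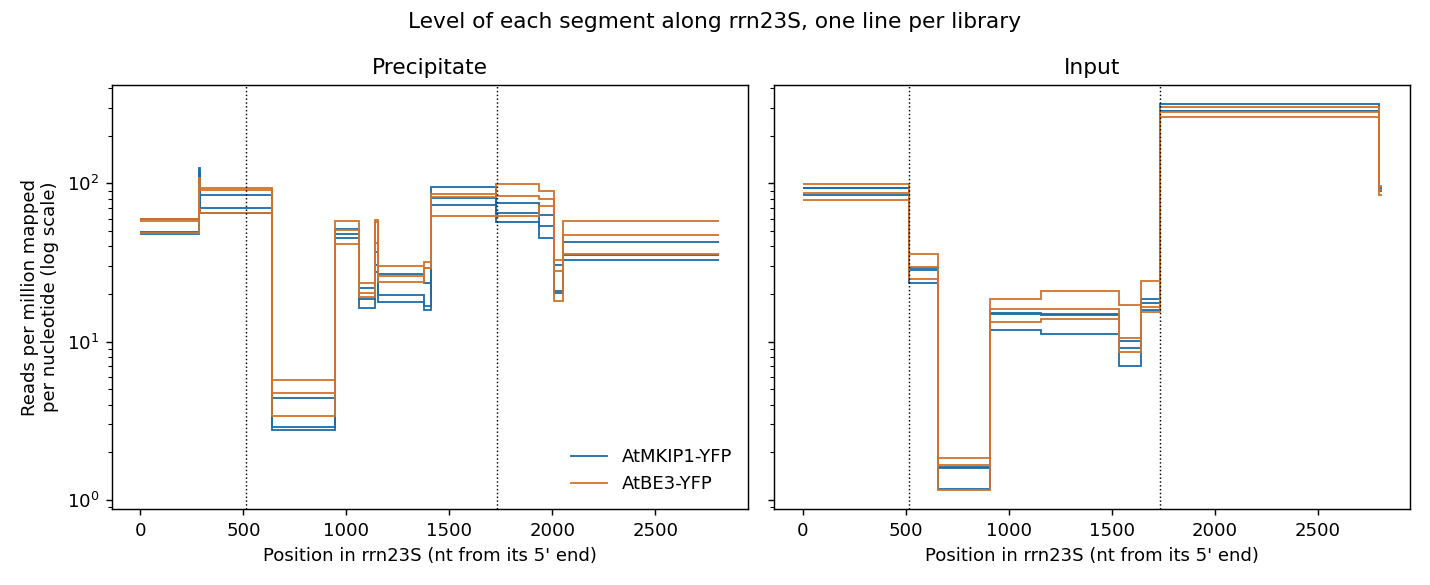
Level of each segment along *rrn23S* (counts per 1000000 mapped reads and nt, log scale) against the position in nt from its 5′ end, with 1 line per library; dotted lines are the borders between the 5′, middle and 3′ stretches. A segment near the start of the middle stretch is lowest in all 12 libraries, and in the input the 3′ stretch lies 15.4 to 26.4 times above the middle one.

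The least covered segments of *rrn23S* in the 2 fractions lay over each other. In the input it was nt 105349 to 105601, with levels of 1.62, 1.18 and 1.59 with *At*MKIP1-YFP and 1.84, 1.65 and 1.16 with *At*BE3-YFP. In the precipitate it was nt 105331 to 105635, with 2.77, 2.91 and 4.4 against 5.72, 4.75 and 3.41. Neither segment was called between the baits (log2 fold change -0.09, standard error 0.17, in the input and -0.46, 0.24, in the precipitate). G and C made up 53.0% of the input segment and 55.2% of the whole *rrn23S*, and a link between base composition and level was not tested. The input segment is shown in capitals with 20 nt on either side.
23S, least covered, nt 105329 to 105621: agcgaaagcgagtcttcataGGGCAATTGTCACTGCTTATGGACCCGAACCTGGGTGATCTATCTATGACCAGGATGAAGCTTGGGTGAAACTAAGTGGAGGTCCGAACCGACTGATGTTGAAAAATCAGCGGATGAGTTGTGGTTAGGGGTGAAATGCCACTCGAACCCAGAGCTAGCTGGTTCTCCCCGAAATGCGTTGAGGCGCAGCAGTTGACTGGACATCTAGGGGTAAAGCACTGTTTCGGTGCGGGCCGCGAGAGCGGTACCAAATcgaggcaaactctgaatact

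Other genes of the plastid ribosome and of the operon were read from lists. Of the 21 listed ribosomal protein genes of the plastid, 6 had segments of their own in the precipitate. Of their 8 exons or genes 5 were called higher and 2 lower, with a median log2 fold change of 1.09 beside -0.18 over all 52 features, of which 42.3% were higher and 40.4% lower. Several of the listed genes (*rpl2*, *rpl23*, *rps19*, *rps12*) lie in target loci. The highest was *rpl2* exon 2, coding for a protein of the large subunit, at 2.69 (standard error 0.18), and the lowest *rpl16* exon 2, coding for another, at -1.38 (0.27, adjusted p = 0.00017). In the input 0 of 5 were called by edgeR, with 0 at an unadjusted p under 0.05, and the range ran from *rps12* at 0.12 to *rpl16* exon 2 at 0.34. The tRNA genes beside the operon, *trnV-GAC* before it and *trnR-ACG* after it, had no precipitate segment of their own, and in the input they were at 0.13 (0.15) and 0.25 (0.15), neither called.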

How the data were processed

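By their methods, the authors used Cutadapt for trimming (accepting 18 to 60 nt), STAR for mapping to the TAIR10 chloroplast genome with 1 inverted repeat copy, UMI-tools for collapsing duplicates (not stated in the header of the input library sizes) and DiffSegR for segment borders; versions are not given in the sources used here. The deposited counts are whole reads per segment and strand. The authors' own fold changes and p-values, also deposited, were not used. Members and gene lists were chosen with earlier results of these data known.

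Segments, and features (segments at least 50% inside a gene part, summed), were tested by edgeR's quasi-likelihood method (version 4.0.16, R 4.3.3). Library size was the number of mapped reads, the expression filter required 10 counts in a library and 15 in total, and p-values were adjusted by Benjamini-Hochberg over all rows of a table. The standard error is the log2 fold change divided by the square root of F. DESeq2 1.42.0, other scalings, no filter, a replicate block, other ways to sum segments and leaving out each library were alternatives. Shares, ratios and unevenness were compared by exact permutation tests (scipy 1.17.1) and drawn with matplotlib 3.10.9. Scripts were tested on simulated data. Common dispersions correspond to a coefficient of variation of 0.188 (precipitate segments) and 0.131 (input segments). *rrn5S* was placed by sequence match. Named are the 4 rRNAs, stretches and tRNAs of the operon, the called, highest and lowest members, and the highest and lowest ribosomal protein features. All replicates are separate seedling pools; p-values measure the spread between them.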

Additional observations from a re-analysis of the deposited data

How the results depend on the processing

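Under TMM scaling and under DESeq2 with its own size factors, 26 precipitate members were lower, and 21 were when libraries were scaled to summed counts. In the same order, 99, 98 and 92 of the 100 segments outside the target loci and the rRNA windows were lower. Of all 553 segments tested, 198, 184 and 124 were lower. As features, *rrn16S* and *rrn23S* were not called under TMM (-0.24 and -0.26) or under DESeq2 with its own size factors (-0.09 and -0.10). With no library scaling, with libraries scaled on the other plastid RNA and with libraries scaled on *rrn23S*, 0 were lower. Scaled on the other plastid RNA, 10 precipitate members were higher and 1 input member was lower. The cause was not tested. Scaled to summed counts, the precipitate values were -0.89 for *rrn16S*, -0.91 for *rrn23S*, -0.86 for *rrn4.5S* and -0.95 for *rrn5S*, all called, and -0.55 for the spacer between 16S and *trnI-GAU*, called lower. With no library scaling they were 0.40, 0.36, 0.46 and 0.35 for the 4 rRNAs, none called, and with libraries scaled on the other plastid RNA 0.68, 0.66, 0.70 and 0.61. The spacer between 4.5S and 5S was at 0.14 there, and the called segments at nt 101850, 105832, 106069 and 107702 at 0.18, 0.11, 0.17 and 0.14. With every overlapping segment *rrn5S* was at -0.42. In the input, *rrn23S* was at -0.0375 scaled on the other plastid RNA and at -0.0617 as the length-weighted mean, and the spacer between 4.5S and 5S at 0.0097 with every overlapping segment. The interaction of bait and fraction for *rrn16S*, *rrn23S* and *rrn5S* was -0.79, -0.96 and -0.80 with the sum of counts (called), 0.38, 0.21 and 0.38 with TMM, and 0.86, 0.70 and 0.84 scaled on the other plastid RNA, where the spacer between 4.5S and 5S was at 0.32.

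Leaving out each library in turn gave 0 to 9 precipitate members lower, -0.29 to 0.0874 for *rrn4.5S* and -0.43 to 0.0335 for *rrn5S* in the precipitate, -0.0064 to 0.0927 for *rrn23S*, -0.26 to 0.0107 for *rrn5S* and -0.16 to 0.0313 for the spacer between 4.5S and 5S in the input, and -0.19 to 0.0426 for *rrn16S* and -0.44 to 0.22 for *rrn5S* in the interaction. The bait difference in the input share of the members ran from -2.17 to 0.0744 counts per 100 mapped reads. In the input, with every overlapping segment, the spacer between *trnA-UGC* and *rrn23S* went from -0.03 to 0.03, the leader from 0.08 to -0.14 and the stretch after *rrn5S* from 0.06 to -0.13, and scaled on the other plastid RNA the leader and that stretch were at -0.01 and -0.04. None of these was called, and they were not recomputed without single libraries.

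The replicate block changed no call of an rRNA, a spacer or a member segment: 4 precipitate members were lower, *rrn16S* was at -0.16 and *rrn23S* at -0.18. Same-numbered libraries of the baits had correlations of deviations from -0.16 to 0.13 in the precipitate and from -0.45 to -0.13 in the input. Precipitate and input of a pool, which do belong together, correlated at -0.48 to 0.28. The check missed this known pairing, so it cannot decide whether the numbers pair the libraries of the baits. With the pool as block the interaction of the spacer between 4.5S and 5S was -0.60 (adjusted p = 0.045 in edgeR).

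Depth limits the short precipitate segments: the called ones held 236 to 1620 counts per library. Levels of segments under 20 nt depend on the assumed read length. The precipitate value of *rrn16S* rests on 1345 of its 1491 nt. Calls per segment do not allow for borders drawn on the same contrast.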
